A study of Rattus norvegicus with 64 samples.

Results

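The 10 genes described here encode claudins and other proteins of epithelial junctions: Cldn1, Cldn3, Cldn4, Cldn7, Cldn8, Ocln, Tjp1, Tjp3, Cdh1 and Epcam. They were chosen by symbol, as the array features whose RefSeq transcript belongs to one of these genes, with no measured value in the rule. Earlier results of these data were known when these genes and the gene lists below were chosen. All 10 genes were present, with 11 of the 30367 gene probes and 10 of the 15715 named genes. Tjp1 had 2 probes and each other gene had 1.

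The arrays measured RNA of the bladder wall that formed on a graft in male Wistar rats after hemicystectomy. The graft was bladder acellular matrix alone (BAM only), a bladder wall stripped of its cells, or the same matrix on which adipose-derived stromal cells had been cultured (BAM seeded with ASCs). Both grafts were studied at 7, 30, 90 and 180 days, with 8 arrays from 8 rats in each of the 8 groups and 64 arrays in all. All groups shared the operation, the matrix, the sex and the strain. The ASCs came from retroperitoneal fat of syngeneic male rats and cannot be told from host cells on these arrays, and the reconstructed wall was cut free from the native bladder before RNA was isolated, so each array holds every cell type of that wall.

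Epithelial cells close the space between them with tight junctions. Claudins and occludin span the membrane there, and the Tjp proteins (zonula occludens proteins) tie them to the actin cytoskeleton. Below the tight junction, E-cadherin, the product of Cdh1, holds neighbouring cells together, and Epcam is an epithelial surface protein that binds claudin 7. In the bladder these proteins help the urothelium to keep urine out of the tissue beneath it.

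All values are normalized log2 signals, that is, log2 of the processed signal from which the array's own 75th percentile over gene spots was taken. A gene was called differentially expressed when its adjusted p was under 0.01 and its fold change exceeded 1.5. At 7 and 30 days the share of gene spots well above background was 73.3% to 95.6% per array, against 35.5% to 64.6% at 90 and 180 days, which were also scanned on another date. Each group lay on a slide of its own, so slide and group cannot be told apart. Cldn4, Cldn7, Ocln, Cdh1, Epcam, Tjp3 and the brighter Tjp1 probe were well above background on all 64 arrays. Cldn1, Cldn3 and Cldn8 were above it on 39, 40 and 45 arrays. In the BAM only group at 7 days replicate 7 had the lowest summed signal of 13 urothelium markers (3.15 in log2), and in the BAM only group at 90 days replicate 5 had the lowest (5.36). Values without these arrays are given beside the comparisons that use their groups.

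Promoters were read from RefSeq (GRCr8 assembly) for the 8 of the 10 genes that the promoter table listed. The 250 bases before the transcription start were searched on both strands for CACCTG, the E-box bound by the Snai and Zeb repressors of epithelial genes, and for AACCNGTT, a site of the grainyhead factors of epithelia. The searched letter strings did not overlap in any of the 8 windows. CACCTG was found in 5 of the 8 windows and in 15.9% of 33469 rat promoters of the same length. Cldn7 held 4 matches, Ocln held 2, and Cldn3, Tjp3 and Epcam held 1 each. AACCNGTT was found in 1 of the 8 (Tjp1) and in 1.76% of all promoters. The windows of Cldn7, Epcam, Cldn3, Tjp3 and Ocln are printed because these genes carried the graft differences described below and hold the E-box letters, which stand in capitals. They lie at chr10:55188420-55188669 (plus strand), chr6:12649679-12649928 (minus strand), chr12:27346548-27346797 (minus strand), chr7:9084174-9084423 (plus strand) and chr2:33441199-33441448 (minus strand).
Cldn7: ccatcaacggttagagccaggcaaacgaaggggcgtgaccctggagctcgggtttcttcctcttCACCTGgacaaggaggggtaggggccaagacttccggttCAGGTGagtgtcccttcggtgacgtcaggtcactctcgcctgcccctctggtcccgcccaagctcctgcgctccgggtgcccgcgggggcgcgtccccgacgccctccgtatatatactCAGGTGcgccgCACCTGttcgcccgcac
Epcam: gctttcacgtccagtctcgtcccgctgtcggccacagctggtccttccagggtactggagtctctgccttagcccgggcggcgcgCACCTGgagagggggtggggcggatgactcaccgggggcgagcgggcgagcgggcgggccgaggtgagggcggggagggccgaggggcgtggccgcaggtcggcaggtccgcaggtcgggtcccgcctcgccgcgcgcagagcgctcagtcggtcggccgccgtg
Cldn3: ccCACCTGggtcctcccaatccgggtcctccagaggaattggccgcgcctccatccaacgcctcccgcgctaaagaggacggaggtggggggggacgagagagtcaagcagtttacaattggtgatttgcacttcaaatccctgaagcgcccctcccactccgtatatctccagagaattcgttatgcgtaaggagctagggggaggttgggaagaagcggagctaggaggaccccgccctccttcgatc
Tjp3: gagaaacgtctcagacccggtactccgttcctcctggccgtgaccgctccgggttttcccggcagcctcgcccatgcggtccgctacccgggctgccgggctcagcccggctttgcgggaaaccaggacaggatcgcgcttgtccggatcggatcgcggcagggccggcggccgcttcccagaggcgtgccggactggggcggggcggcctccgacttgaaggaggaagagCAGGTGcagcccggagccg
Ocln: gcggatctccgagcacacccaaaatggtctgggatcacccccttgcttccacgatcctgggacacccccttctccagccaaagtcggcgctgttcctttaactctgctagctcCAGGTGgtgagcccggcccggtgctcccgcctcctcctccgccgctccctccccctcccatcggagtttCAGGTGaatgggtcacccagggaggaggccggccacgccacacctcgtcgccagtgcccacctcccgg
Such a match is a stretch of letters and says nothing of what binds there.

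**Figure D1:**
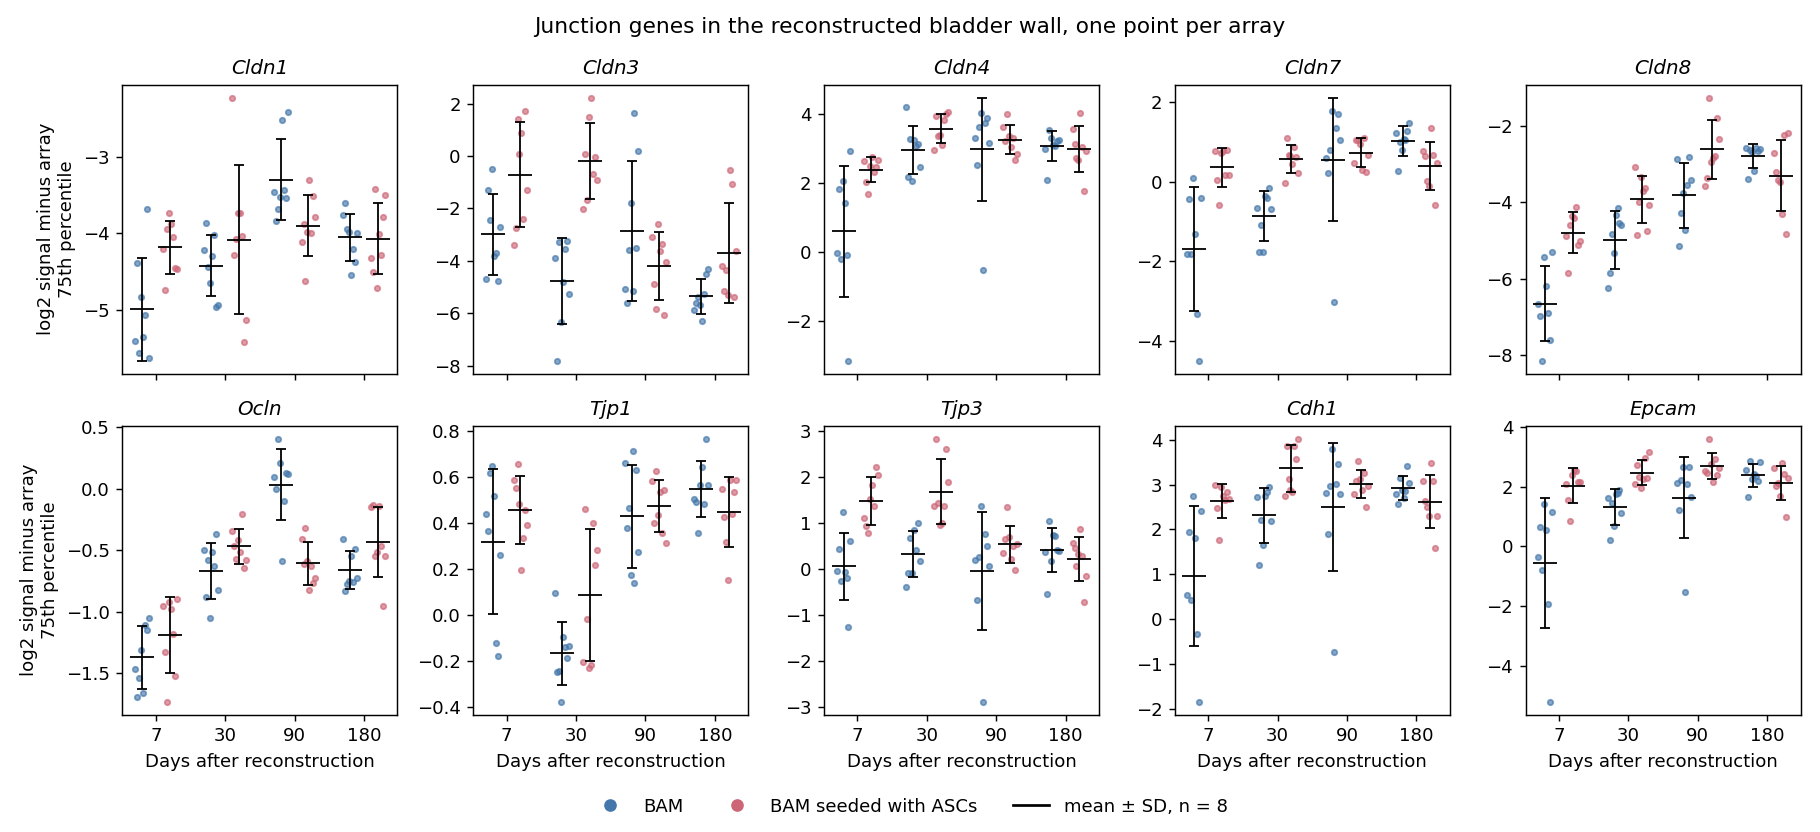
Normalized log2 signal (y axis, one scale per gene) of the 10 junction genes against days after reconstruction (x axis). Each point is 1 array, blue for BAM only and red for BAM seeded with ASCs, and bars are mean ± SD of 8 arrays. At 7 days the seeded grafts sit higher for Cldn4, Cldn7, Cldn8, Tjp3, Cdh1 and Epcam, and at 30 days the Cldn3 points of the grafts do not overlap.

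At 7 days 6 of the 10 genes were higher in BAM seeded with ASCs than in BAM only and none was lower, against 7.73% of all probes called in either direction and 2.11% called higher. The 6 were the claudins Cldn4, Cldn7 and Cldn8, the scaffold Tjp3, E-cadherin and Epcam. The remaining 4 also had positive differences, and the median over the 10 was 1.73, against -0.16 over all probes. In bulk tissue, fewer cells of a type and less RNA per cell cannot be told apart.

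Epcam had the largest difference at 7 days. In BAM only its signal ran from -5.19 through a median of 0.10 to 1.43, and in the seeded grafts from 0.85 through 2.16 to 2.56. Of the 8 seeded arrays 7 were above every BAM only array. The difference was 2.60 ± 0.50 (log2, SE), a 6.05-fold change with an adjusted p of 9.56e-05.
Cldn7, a claudin that also lies along the lateral membrane, ran from -4.49 (median -1.56) to 0.08 in BAM only and from -0.59 (median 0.44) to 0.79 in the seeded grafts. The groups overlapped in part, with 6 seeded arrays above all BAM only arrays. Its difference was 2.05 ± 0.43 (adjusted p = 0.000421).
Cldn4, a sealing claudin of the urothelium, was spread over -3.16 to 2.92 (median 0.69) in BAM only and only over 1.67 to 2.75 (median 2.47) in the seeded grafts. No seeded array exceeded the highest BAM only array, and the groups differed by 1.79 ± 0.48 (adjusted p = 0.00503).
Cdh1 was alike in shape, with -1.84 to 2.73 (median 1.17) in BAM only and 1.77 to 2.98 (median 2.70) in the seeded grafts. It differed by 1.67 ± 0.42 (adjusted p = 0.00273), and 4 seeded arrays lay above every BAM only array. Tjp3, the zonula occludens scaffold found mainly in epithelia, ran from -1.25 to 1.25 (median -0.04) in BAM only and from 0.80 to 2.23 (median 1.45) in the seeded grafts, a difference of 1.42 ± 0.34 (adjusted p = 0.00185).

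Cldn8, a barrier claudin of urinary epithelia, ran from -8.15 to -5.30 (median -6.80) in BAM only and from -5.85 to -4.12 (median -4.74) in the seeded grafts. Its difference was 1.87 ± 0.37 (adjusted p = 0.000176), with 7 seeded arrays above all BAM only arrays. This gene was dim: only 2 of the 8 BAM only arrays were well above background, against 8 of 8 seeded arrays. With normexp background correction its difference was 0.14 and was not called. Cldn3 differed by 2.27 ± 0.85 (adjusted p = 0.054) and Cldn1, a claudin best known from skin, by 0.81 ± 0.27 (adjusted p = 0.0298), and neither passed. Ocln and the Tjp1 scaffold differed by 0.18 ± 0.12 (adjusted p = 0.334) and 0.14 ± 0.10 (adjusted p = 0.409).

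Replicate 7 of the BAM only group held the lowest 7-day signal of Cldn4, Cldn7, Tjp3, Cdh1 and Epcam. Without it the differences were 1.94 for Epcam (adjusted p = 0.000313), 1.65 for Cldn7 (adjusted p = 0.00326) and 1.73 for Cldn8 (adjusted p = 0.000979), and all 3 were still called. Cldn4 was then 1.25 (adjusted p = 0.0345), Cdh1 1.28 (adjusted p = 0.019) and Tjp3 1.23 (adjusted p = 0.0104), below the call, while Cldn1 was 1.00 and was called (adjusted p = 0.00778). Cldn4 also lost its call when any of 5 other arrays was left out (adjusted p 0.0105 to 0.0142), and Cdh1 without replicate 6 of BAM only (1.49, adjusted p = 0.012). A limma fit of the 7-day arrays on their own called only Cldn8 and Tjp3. In that fit Epcam (adjusted p = 0.0242), Cldn7 (0.0164), Cldn4 (0.0635) and Cdh1 (0.0381) had the same differences and were not called.
The urothelium markers moved at 7 days as well: 9 of 13 were higher in the seeded grafts, none was lower, and their median difference was 2.05. Their summed log2 signal ran from 3.15 to 7.12 in BAM only and from 6.05 to 7.60 in the seeded grafts. Every marker was above background on at least 1 array of each group. None of 9 smooth muscle, 6 fibroblast and 6 leukocyte markers was called at 7 days. Of 6 endothelium markers 2 were lower in the seeded grafts, against 5.62% of all probes called lower. The count was 3 with normexp correction and 1 with quantile normalization. The summed log2 signal of the 6 was 3.97 to 4.78 in BAM only and 3.49 to 4.05 in the seeded grafts. The part of urothelium and endothelium in the junction gene differences was not tested.

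**Figure D2:**
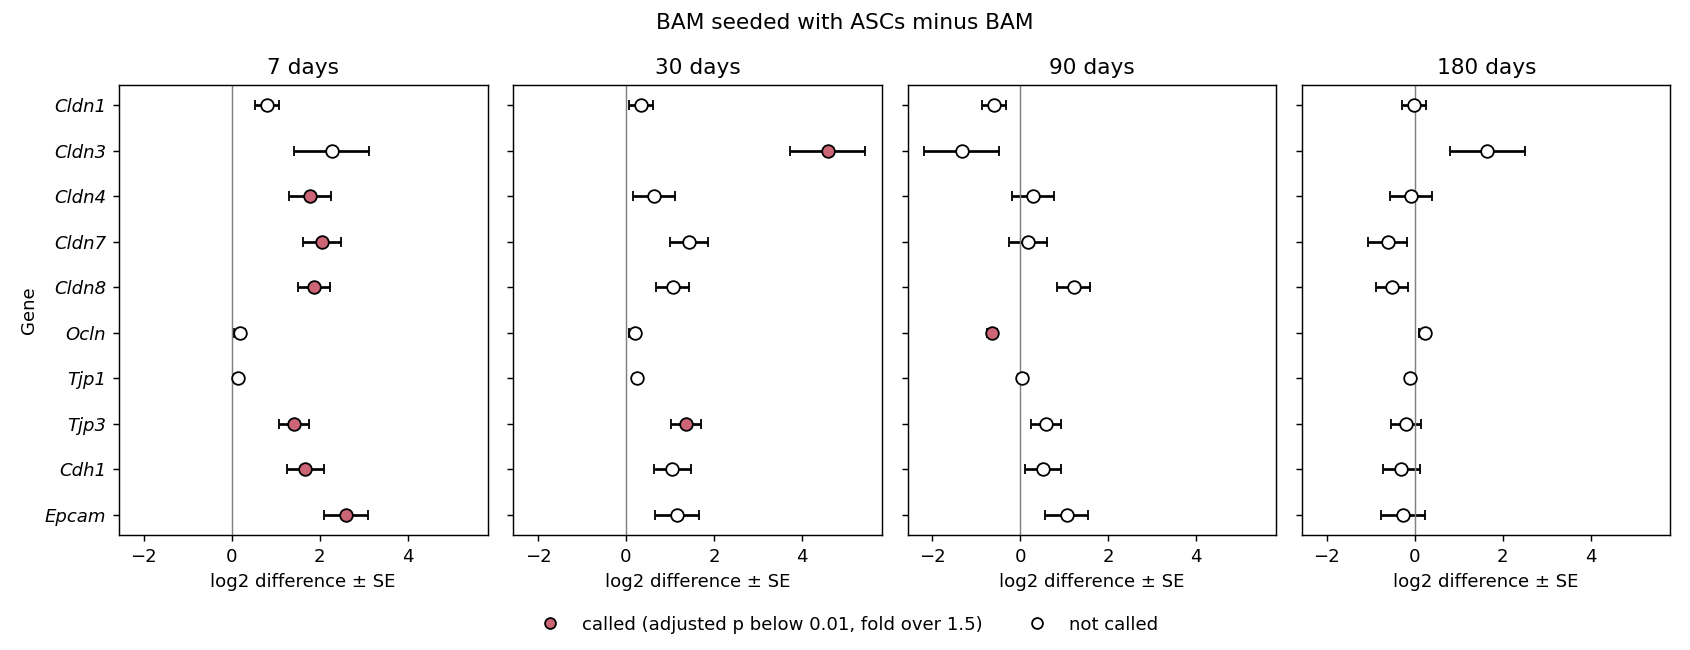
Signal in BAM seeded with ASCs minus signal in BAM only (x axis, log2, ± SE of the fit, 8 arrays per group) for each of the 10 genes (y axis) at each day. Filled points were called: 6 genes at 7 days, Cldn3 and Tjp3 at 30 days, Ocln at 90 days and none at 180 days.

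At 30 days 2 of the 10 genes were higher in BAM seeded with ASCs, Cldn3 and Tjp3, against 1.67% of all probes called. Cldn3, a sealing claudin of many epithelia, ran from -7.81 through -4.35 to -3.25 in BAM only and from -2.00 through -0.35 to 2.22 in the seeded grafts. The groups did not overlap, and the lowest seeded array stood above the highest BAM only array. The difference was 4.58 ± 0.85, a 24.0-fold change (adjusted p = 0.000466). Of the BAM only arrays 6 of 8 were well above background for this gene. With normexp background correction the difference was 3.16 and was called (adjusted p = 0.000782).
Tjp3 ran from -0.38 to 1.01 (median 0.30) in BAM only and from 0.96 to 2.83 (median 1.41) in the seeded grafts. Its difference was 1.36 ± 0.34 (adjusted p = 0.00915), close to the threshold. Leaving out any 1 of 11 of the 16 arrays ended the call, with adjusted p up to 0.0342.

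Cldn7 and Epcam also did not overlap between the grafts at 30 days, and neither was called. The share of all probes without overlap between these groups is not given here, so these separations are description only. Cldn7 ran from -1.76 to -0.16 in BAM only and from -0.04 to 1.08 in the seeded grafts, a difference of 1.43 ± 0.43 (adjusted p = 0.0302). Epcam ran from 0.21 to 1.88 and from 1.96 to 3.16, a difference of 1.16 ± 0.50 (adjusted p = 0.129). For both genes the fit's pooled standard error was set by the wide BAM only groups of other days as well. A limma fit of the 30-day arrays on their own called Cldn7 (adjusted p = 0.00397) and Cldn3 (0.00295), and left Tjp3 (0.0118) and Epcam (0.0121) uncalled. The other differences were 1.06 for Cldn8, 1.05 for Cdh1, 0.63 for Cldn4, 0.34 for Cldn1, 0.25 for Tjp1 and 0.20 for Ocln, all positive and none called. The 10 genes had a median of 1.06, against 0.11 over all probes. Of the 13 urothelium markers all had positive differences at 30 days with a median of 0.74, and 1 was called (Foxa1, named after its value was seen, 1.05, adjusted p = 0.00161). Their summed log2 signal ran from 6.26 to 7.50 in BAM only and from 7.37 to 8.21 in the seeded grafts. The summed log2 signal of the 6 leukocyte markers did not overlap between the grafts either, by a narrow margin, with 6.94 to 7.24 in BAM only and 6.12 to 6.91 in the seeded grafts. None of the 6 was called (median -0.91), and this separation is description only as well. The part of either cell type in the result was not tested.

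At 90 days 1 of the 10 genes was called, against 12.5% of all probes. Ocln, the occludin gene, was lower in BAM seeded with ASCs. It ran from -0.59 through 0.11 to 0.40 in BAM only and from -0.82 through -0.62 to -0.32 in the seeded grafts. Of the seeded arrays 5 lay below every BAM only array, and the difference was -0.64 ± 0.12, a 1.56-fold change (adjusted p = 4.05e-05). All probes together had a median difference of -0.27, and relative to it Ocln differed by -0.37. The BAM only slide at 90 days had a median local background of 345.3 ± 14.3 intensity units (SD over 8 arrays) against 108.2 ± 7.03 on the seeded slide, and with normexp background correction the Ocln difference was -0.49 and was not called. The part of the slide in this result was not tested.
Cldn8 was higher in the seeded grafts by 1.21 ± 0.37 with an adjusted p of 0.0105. Only 2 of 8 BAM only arrays were well above background for it, against 8 of 8 seeded arrays. It was called when the 75th percentile was taken over detected probes, with quantile normalization, and when dim probes were left out. With normexp correction the difference was 0.73 and was not called (adjusted p = 0.0115), and in a fit of that day alone the adjusted p was 0.024.

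Replicate 5 of the BAM only group at 90 days was the lowest of its group for Cldn4 (-0.53), Cldn7 (-3.03), Cdh1 (-0.74), Epcam (-1.52), Tjp3 (-2.87) and Ocln (-0.59). The differences at 90 days were 0.28 for Cldn4, 0.17 for Cldn7, 0.51 for Cdh1, 1.05 for Epcam and 0.59 for Tjp3, none of them called. Without replicate 5 they were -0.22, -0.34, 0.05, 0.60 and 0.19. Ocln differed by -0.73 without it and was called (adjusted p = 2.23e-06). Of the marker lists of other cells, 3 of 9 smooth muscle, 3 of 6 fibroblast and 1 of 6 leukocyte markers were higher in the seeded grafts at 90 days. Of 6 endothelium markers 1 was lower and none was higher. With quantile normalization no smooth muscle, fibroblast or leukocyte marker was called, and 1 endothelium marker was still lower. With normexp correction 3 smooth muscle and 3 fibroblast markers were still higher, and no leukocyte or endothelium marker was called. Leaving out dim probes did not change these counts. The part of these cells in the junction gene differences was not tested. No urothelium marker was called at 90 days, with a median of 0.97.

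At 180 days none of the 10 genes was called by limma, against 2.44% of all probes, and none had an unadjusted p below 0.05. The differences ran from -0.62 ± 0.43 for Cldn7 to 1.65 ± 0.85 for Cldn3. Cldn3 was not well above background on any BAM only array and was above it on 2 seeded arrays, where replicates 5 and 6 stood at -0.53 and -1.06. Its difference had an adjusted p of 0.382. The median over the 10 genes was -0.15, against 0.06 over all probes.

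The change of the graft difference from day to day was tested directly. None of the 10 genes passed from 7 to 30 days, against 1.05% of all probes at an adjusted p below 0.01, and 1 of the 10, Epcam, had an unadjusted p below 0.05 (0.0442). From 30 to 90 days 2 passed, against 11.4% of all probes. The Cldn3 difference fell by 5.91 ± 1.20 on the log2 scale (adjusted p = 0.000241), from 4.58 to -1.33, and the Ocln difference fell by 0.84 ± 0.17 (adjusted p = 0.000254), from 0.20 to -0.64. The Cldn3 difference of -1.33 at 90 days was itself not called (limma, adjusted p = 0.203). On that day Cldn3 was well above background on only 4 of 8 arrays of each graft, so the size of its fall is uncertain. This step also crosses the scan dates. From 90 to 180 days 1 passed, against 11.3%: the Ocln difference rose by 0.87 ± 0.17 (adjusted p = 0.000112). Without replicate 5 of BAM only at 90 days Cldn3 and Ocln still passed from 30 to 90 days (-6.24 and -0.93), Cldn7 passed as well (-1.77, adjusted p = 0.00956), and Ocln still passed from 90 to 180 days (0.96). None passed from 7 to 30 days without replicate 7 of BAM only at 7 days. These Ocln tests share the BAM only group at 90 days, the highest of all groups for this gene.

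Within the BAM only grafts 4 of the 10 genes rose from 7 to 30 days and none fell, against 8.65% of all probes called. Cldn4 rose by 2.36, Epcam by 1.87, Cldn8 by 1.68 and Ocln by 0.71, while Tjp1 differed by -0.48 and stayed under the 1.5-fold limit. Without replicate 7 of the 7-day group Epcam rose by 1.21 and lost its call (adjusted p = 0.0208), and Cldn4 (1.82), Cldn8 (1.54) and Ocln (0.74) were called. Cldn8, which was dim on that day, had 0.12 with normexp correction and was not called. From 30 to 90 days 5 rose (Cldn1 by 1.12, Cldn7 by 1.42, Cldn8 by 1.17, Ocln by 0.70 and Tjp1 by 0.60), against 44.7% of all probes, a share close to the background. At 90 days Cldn1 and Cldn8 were well above background on 1 and 2 of 8 arrays. This step also crosses the scan dates, and day and scan date cannot be told apart. Without replicate 5 of the 90-day group Cldn7 differed by 1.93, and Tjp1, with 0.55, was under the 1.5-fold limit. From 90 to 180 days 1 changed, Ocln, which fell by 0.69, against 9.39% of all probes, and without that array it differed by -0.78 and was called.
In the seeded grafts 1, 3 and 0 of the 10 genes passed in the 3 steps. From 7 to 30 days only Ocln passed, with a rise of 0.72, against 8.06%. From 30 to 90 days 3 passed, against 28.1% of all probes, a share close to the background. Cldn3 fell by 4.00 and Tjp3 by 1.14, and Cldn8 rose by 1.32. At 90 days Cldn3 was well above background on 4 of 8 seeded arrays, and this step also crosses the scan dates. From 90 to 180 days none passed, against 4.14%, and none had an unadjusted p below 0.05.

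The order of the 8 group means differed between genes. BAM only at 7 days was the lowest group for Cldn1, Cldn4, Cldn7, Cldn8, Ocln, Cdh1 and Epcam. Cldn4 and Cdh1 were highest in the seeded grafts at 30 days, Epcam and Cldn8 in the seeded grafts at 90 days, and Cldn7 in BAM only at 180 days, but for Cldn4, Cdh1 and Epcam no neighbouring means in the order lay further apart than the larger of their SDs. For Cldn7 the only such gap was between the seeded grafts at 7 days and BAM only at 30 days. Cldn8 had gaps between the seeded grafts at 30 and at 7 days and between BAM only at 30 and at 7 days. Ocln had them between BAM only at 90 days and the next group, the seeded grafts at 180 days, and between BAM only at 30 days and the seeded grafts at 7 days.
Cldn3 and Tjp3 were highest in the seeded grafts at 30 days, followed by the seeded grafts at 7 days. Cldn3 means ran from -0.19 ± 1.46 (SD, n = 8) there to -5.36 ± 0.68 in BAM only at 180 days, with no neighbours separated beyond their SD. Its spread within a group was wide: in BAM only at 90 days it ran from -5.60 to 1.63. Tjp3 had 1 gap, between the seeded grafts at 7 and at 90 days. Tjp1 had the narrowest range of group means, 0.71, from -0.16 ± 0.14 in BAM only at 30 days to 0.55 ± 0.12 in BAM only at 180 days. Cldn1 was highest in BAM only at 90 days, where only 1 of 8 arrays was well above background, and that was its only gap.

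Tjp1 and Cldn1 were printed on 10 spots of each array, which shows the error of the measurement itself. The median SD between single spots was 0.06 for Tjp1 and 0.22 for Cldn1. An array's value is the mean of its spots, with a median SE of 0.02 for Tjp1 and 0.07 for Cldn1. The median SDs of these array values between rats were 0.15 and 0.44. The second Tjp1 probe was weaker. It was well above background on 8 of 8 arrays of each group at 7 and 30 days. At 90 and 180 days it was above it on 1 and 1 of 8 BAM only arrays and on 5 and 2 of 8 seeded arrays. The probe passed no test in any of the 13 comparisons, and its graft difference at 7 days was -0.21 ± 0.29. On replicate 7 of BAM only at 90 days its spots differed widely, with -3.68 and 4.48, so that array was at 0.40 while the group's median was -3.80.

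**Figure D3:**
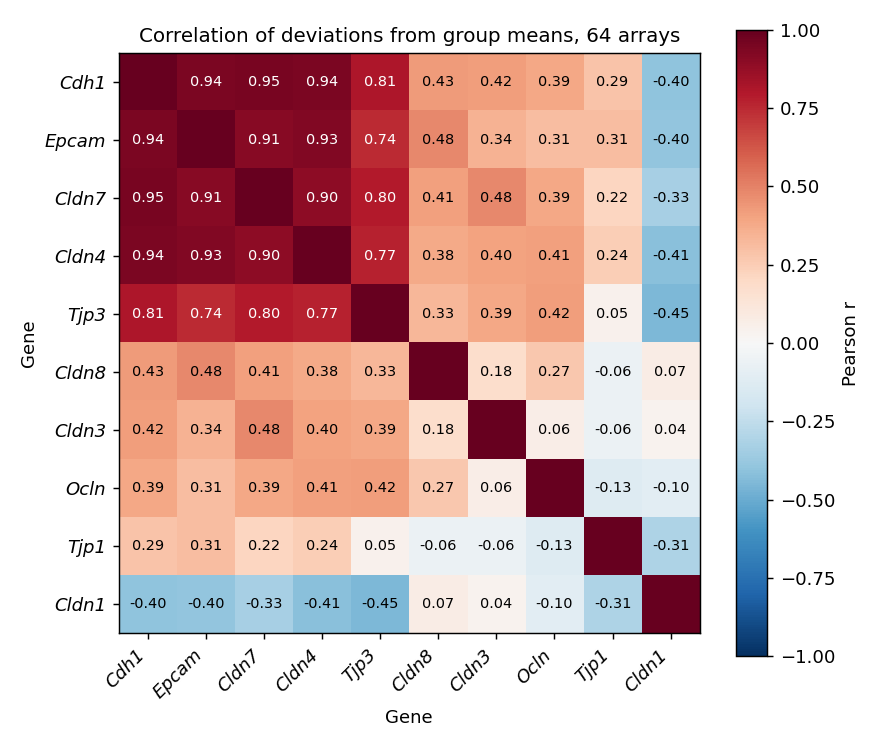
Pearson r between each pair of the 10 genes (both axes) over 64 arrays, after the group mean of each gene was subtracted. Red marks positive and blue negative values. Cdh1, Epcam, Cldn7, Cldn4 and Tjp3 form a block with r from 0.74 to 0.95. Cldn1 has r from -0.33 to -0.45 with them, and by rank only its pair with Tjp3 passed.

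Among rats of the same group the genes did not all vary together. Deviations from the group means over the 64 arrays were compared in 45 pairs, and 30 pairs passed an adjusted p of 0.05 in a 2-sided permutation test within groups, 25 of them with a positive r. The median r of the 45 pairs was 0.34, against -0.04 between the 10 genes and all other probes. Cdh1, Epcam, Cldn7, Cldn4 and Tjp3, set apart here after the values were seen, had r between 0.74 and 0.95 in their 10 pairs. For Cdh1 and Cldn7 r was 0.95 and rho 0.85, each with a permutation p of 1e-05, the smallest that 100000 resamples can give, and an adjusted p of 4.5e-05. Without the 2 arrays farthest from the Cldn7 median r was 0.90, and it was 0.94 within the arrays of 7 and 30 days and 0.96 within those of 90 and 180 days.
Cldn8 and Cldn3 were tied to this block more loosely, with r of 0.48 between Cldn8 and Epcam (rho 0.47, permutation p 0.00045 and 0.00049, adjusted p = 0.00184) and 0.48 between Cldn3 and Cldn7 (rho 0.52, permutation p 0.00073 and 8e-05, adjusted p = 0.00253). Without the 2 farthest arrays these were 0.47 and 0.45. Cldn3 was dim at 90 and 180 days. It was well above background on 4 and 0 of 8 BAM only arrays and on 4 and 2 of 8 seeded arrays. No pair with Tjp1 passed. Cldn1 varied in the opposite direction to Tjp3, with r = -0.45 and rho = -0.41 (permutation p 0.00067 and 0.0017, adjusted p = 0.00251). Without the 2 farthest arrays r was -0.42, and it was -0.42 and -0.53 within the earlier and the later days. Cldn1 was dim at 90 and 180 days. It was well above background on 1 and 1 of 8 BAM only arrays and on 6 and 0 of 8 seeded arrays. With Cldn4, Cldn7, Cdh1 and Epcam Cldn1 had r of -0.41, -0.33, -0.40 and -0.40. By rank none of these pairs passed (permutation, adjusted p 0.0644 to 0.235), and r was -0.20 to -0.29 without the 2 farthest arrays.

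**Figure D4:**
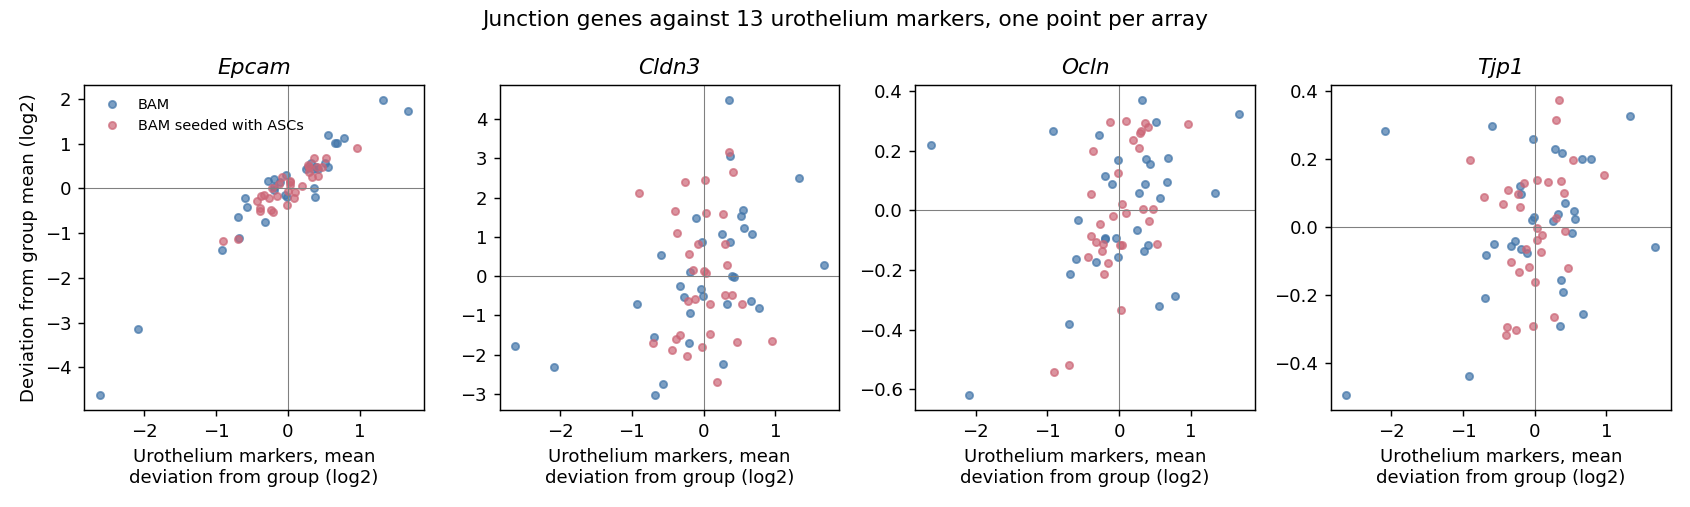
Deviation from the group mean of Epcam, Cldn3, Ocln and Tjp1 (y axes, log2) against the mean deviation of 13 urothelium markers (x axis, log2), 1 point per array, 64 arrays, blue for BAM only and red for BAM seeded with ASCs. Epcam follows the markers closely (r = 0.95), and the other 3 genes have r of 0.34, 0.38 and 0.27.

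Each of the 10 genes was also set against the mean deviation of the 13 urothelium markers over the 64 arrays, 10 relations in all. Epcam had r = 0.95 and rho = 0.89 and Cdh1 r = 0.95 and rho = 0.92, followed by Cldn4 with r = 0.91 and rho = 0.80, Cldn7 with r = 0.89 and rho = 0.80, and Tjp3 with r = 0.75 and rho = 0.70, each with a permutation p of 1e-05 and an adjusted p of 2e-05. Without replicate 7 of BAM only at 7 days and replicate 5 of BAM only at 90 days, the 2 arrays farthest out, these r were 0.92, 0.92, 0.83, 0.82 and 0.65. Cldn8 had r = 0.57 and rho = 0.55 (permutation, adjusted p = 5e-05 for both), and 0.57 without these arrays.
Cldn3 had r = 0.34 and rho = 0.34 (permutation p 0.0145, adjusted p = 0.0161), and r = 0.27 without the 2 arrays. Ocln had r = 0.38 and rho = 0.37 (permutation p 0.00712, adjusted p = 0.0102), with 0.17 at 7 and 30 days and 0.69 at 90 and 180 days. Tjp1 had r = 0.27 and rho = 0.24 and did not pass (permutation p 0.126, adjusted p = 0.126), with 0.48 at 7 and 30 days and -0.17 at 90 and 180 days. For Cldn1 r was -0.34 with an adjusted permutation p of 0.0154, but rho was -0.21 (adjusted p = 0.135) and r was -0.14 without the 2 arrays, so that relation rests on them.
The 5 named genes outside the 10 whose deviations were most like the mean deviation of the 10, among 5232 genes well above background on all 64 arrays, were Lsr (r = 0.93), Kdf1 (0.93), Map7 (0.93), Tmc4 (0.93) and Cyb561 (0.92). Lsr encodes a protein of the corners where the tight junctions of 3 cells meet.

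Of 55 other genes of tight, adherens and desmosomal junctions 48 were on the array. At 7 days 13 were higher in BAM seeded with ASCs and 3 were lower, with a median of 0.23, against 2.11% of all probes higher and 5.62% lower. Among the higher genes were Cldn23 (1.76), Crb3 (1.76), a polarity protein of the apical membrane, and Nectin4 (1.66), an adhesion receptor. The lower genes were Cldn9 (-1.47), Nectin3 and Cldn18. Nectin3 and Cldn18 were not well above background on any seeded array, and on only 5 and 3 of the 8 BAM only arrays, so no fold is given for them. With normexp correction or quantile normalization neither was called, and Cldn9 was called under both. At 30 days 7 were higher and none was lower, with a median of 0.61, against 1.67% of all probes called. Marveld3 (1.82), which belongs to the family of occludin, Cdh3 (1.17), the P-cadherin gene, and Ppl (1.14), the periplakin gene, were among them. Marveld3 was 0.72 with normexp correction and was not called.
At 90 days Magi1 (1.05), a scaffold of tight junctions, was higher. Cldn10, Cldn16 and Cldn9 were lower, but each was well above background on 1 BAM only array and on no seeded array, and with normexp correction none of the 3 was called. These 4 of 48 stand against 12.5% of all probes called, so the list was no richer in calls than the array as a whole. At 180 days limma called none of the 48, against 2.44%. A list of 21 genes that regulate or mark the epithelial state also holds repressors of it, among them the Snai and Zeb genes. At 7 days 10 of the 21 were higher and 1 was lower, against the same 7.73% of all probes. The lower gene was the repressor Zeb2 (-0.75, limma, adjusted p = 0.00617). None was called at 30 and 180 days. At 90 days 1 was higher, the repressor Snai2 (0.72, limma, adjusted p = 0.00248), against 12.5% of all probes. Both were named after their values were seen. The medians over the 21 genes, which pool repressors with the others, were 1.30, 0.86, 0.56 and -0.17 at 7, 30, 90 and 180 days. All of these medians stand beside medians over all probes of -0.16, 0.11, -0.27 and 0.06.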

How the data were processed

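Agilent 1-colour rat arrays of 64 samples were used, 1 rat each, grouped by the graft and day in the labels. The intensity values were deposited by the authors as scanner output (Agilent Feature Extraction 12.0.1.1 per the file headers), background-subtracted and not normalized between arrays. Probes were named through RefSeq accessions. The 10 genes and all lists were chosen with earlier results of these data known. Control spots and outlier spots were left out, spots of a probe were averaged as log2 of the processed signal minus the array's 75th percentile, and a gene was represented by its probe with the highest mean. One limma 3.58.1 model (R 4.3.3) of the 8 group means was fitted over 30367 probes, with Benjamini-Hochberg adjustment over all of them, after a test on simulated data. This stands in for the 2-way analysis of variance of the methods. P-values measure the spread between rats on 1 slide. Correlations used permutations within groups (scipy 1.17.1). Named were all 10 genes, at most 4 called genes of the junction list in each direction and the 5 most similar genes. Foxa1, Zeb2 and Snai2 were named after their values were seen. Some genes that this rule names are not reported here.

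The deposited series matrix, whose intensity values equalled the scanner signals on 61 arrays and were lower by 3.30 to 3.31 in log2 on 3, was used as an alternative. Its scale on those 3 arrays is unknown, and the percentile removes it. On 1 of its arrays 24873 gene spots were empty and stayed missing. Other alternatives were normexp background correction (offset 50), quantile normalization, the percentile over detected probes, dim probes left out, outlier spots kept, the mean of all probes of a gene, no variance shrinkage, a replicate block, separate fits of each day and leaving out each array in turn.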

Additional observations from a re-analysis of the deposited data

Results flagged for a closer look

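In 80 groups of 8 arrays (10 genes in 8 groups) 6 single arrays stood apart, their gap to the nearest array being large for the range of the group. Chance gives about 1 in 20 groups. Replicate 5 of BAM only at 90 days stood apart for Cldn4 (-0.53), Cldn7 (-3.03), Cdh1 (-0.74) and Epcam (-1.52). Replicate 2 of BAM only at 180 days was low for Cldn4 (2.08), and replicate 3 of BAM seeded with ASCs at 7 days was low for Cdh1 (1.77).

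The difference between the grafts changed between days for 2 genes. For Cldn3 it changed by -5.91 from 30 to 90 days. For Ocln it changed by -0.84 from 30 to 90 days and by 0.87 from 90 to 180 days. Of all probes 11.4% passed the same test from 30 to 90 days and 11.3% from 90 to 180 days. Whether the junction genes passed more often than all probes was not tested.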

How the results depend on the processing

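Under 10 processing alternatives the 9 called graft differences gave 90 values, of which 11 lost the call. Of 310 values of differences not called 7 gained it, and none reversed while called. The sign of 4 uncalled differences changed. At 7 days the count of 6 genes became 2 with a separate fit of that day, and ran from 4 to 6 with 1 array left out. At 30 days the count of 2 became 1 with quantile normalization, the series matrix, no shrinkage or the replicate block, and ran from 1 to 2 with 1 array left out. At 90 days 1 became 0 with normexp, 2 with quantile normalization, with the percentile over detected probes, with dim probes left out or with the replicate block, and 1 to 2 with 1 array left out. From 30 to 90 days in BAM only 5 became 3 with normexp and 2 with quantile normalization, and from 90 to 180 days 1 became 2 with quantile normalization. For the change of the graft difference from 90 to 180 days 1 became 2 with quantile normalization, the percentile over detected probes, dim probes left out or the replicate block. Leaving out replicate 7 of BAM only at 7 days or replicate 5 at 90 days from the comparisons between days was chosen after seeing the data. Normexp left 19 of the 30 correlated pairs. The cause was not tested. Replicate numbers did not pair the arrays: same-numbered arrays of the 2 grafts correlated between -0.47 and 0.53. The replicate block gave each replicate number a term shared by all groups and days, so it was not a paired fit within a day. In the fit with this block the other counts did not change. Quantile normalization moved the split of all called probes, from 640 higher of 2347 to 649 of 1328 at 7 days, from 364 of 508 to 179 of 337 at 30 days, from 1178 of 3791 to 1527 of 3052 at 90 days, and from 728 of 741 to 619 of 884 at 180 days. Dim signals limit Cldn1, Cldn3 and Cldn8 most at 90 and 180 days.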

Other observations

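The named genes whose deviations were most like those of Cldn3 over 64 arrays, looked up after the values were seen and with dim probes included, were Tspan1 (r = 0.92), Ppp1r1b (0.78), Cd24 (0.76), Pdzk1ip1 (0.72) and Prom1 (0.69). These r are given as a description. Tspan1, a tetraspanin of epithelial surfaces, had 30-day means of -1.21 ± 1.30 in BAM only and 2.62 ± 1.23 in BAM seeded with ASCs (SD, n = 8). At 90 days it ran from -4.07 to 3.58 in BAM only, where Cldn3 ran from -5.60 to 1.63.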
